A study of Homo sapiens with 8 samples.

Results

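The genes described here encode the subunits of integrins and laminins, the cell surface receptors for extracellular matrix and a principal matrix ligand of these receptors. They were picked by gene symbol alone (ITGA, ITGB, LAMA, LAMB and LAMC genes), with the symbols found from the Entrez identifiers. This uses no measured value, although the families were chosen with earlier results of these data known. The rule found 38 genes among the 28395 in the table: 18 integrin alpha, 8 integrin beta, 5 laminin alpha, 4 laminin beta and 3 laminin gamma genes.

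An integrin is a receptor of 1 alpha and 1 beta subunit that links matrix outside the cell to actin or intermediate filaments inside it, and the pairing sets which ligand is bound. A laminin is a trimer of 1 alpha, 1 beta and 1 gamma chain, and laminin trimers form the polymer layer of basement membranes. In kidney epithelium, laminins and the integrins that bind them anchor tubule cells to the basement membrane.

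The RNA came from the established kidney cancer cell line A-498, of human origin, as 8 polyA-selected libraries with 2 replicates from each of 4 derived lines. Control line 1 and control line 2 each carried a different non-targeting single guide RNA and were described as wild type, and the lines labelled KO guide 1 and KO guide 2 each carried a different guide RNA against ANXA4, which encodes the calcium-dependent membrane-binding protein annexin A4, and were described as ANXA4 knockout (KO). No other agent was named for any group, and each line was seeded at equal cell number and grown for 24 h in RPMI medium with serum, short of confluence. Each guide was represented by a single line, so an effect of a guide and a property of its line cannot be told apart, and nothing stated that the replicates of a line were separate cultures, so p-values measure the spread between these libraries.

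The recovered depth was 15784890 to 22631588 reads per library, and mitochondrial transcripts took 4.67% to 13.8% of the reads, with the highest share in replicate 2 of KO guide 2. ANXA4 had normalized read counts of 2821 to 6773 in the 4 control libraries, of 236 and 234 in KO guide 1, and of 3433 and 4142 in KO guide 2. The line labelled KO guide 2 thus had ANXA4 transcript within the control range (log2 difference -0.10, SE 0.22, limma adjusted p 0.818), and every direction below refers to the labels: KO guide 1 and KO guide 2 stand for the lines so labelled. Renal and kidney cancer markers were present (PAX8 2987 to 4476, PAX2 232 to 412, KRT8 at 16750 or more), with CA9, a hypoxia-induced kidney cancer marker, at 2.08 to 24.8 only. Of 4 leukocyte markers CD3E had 0 reads in all 8 libraries and CD14, a monocyte marker, was at 2.76 to 13.3. Of 3 endothelial markers CDH5 had 0 reads and PECAM1 and VWF at most 4, and of 4 fibroblast and mural markers LUM had 0 reads, COL1A2 and DCN at most 1, and PDGFRB was at 1.04 to 19.8.

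All values below are normalized read counts, that is reads divided by 1 scaling factor per library, unless a level per kilobase is named. Differences are on the scale of log2(value + 1), which understates changes of genes with low values, and a gene was called where the Benjamini-Hochberg adjusted p over all 14040 genes tested was under 0.05. Of the 38 integrin and laminin genes, 33 reached a value of 10 in 2 or more libraries and were tested. ITGA2B, ITGA8, ITGA9, ITGAL and LAMB4 were not tested, and ITGA8 and ITGAL had no more than 3 reads in any library and were treated as not detected. The mean value was at least 1000 for 15 of the genes, between 100 and 1000 for 7 and under 100 for 16. ITGA11 passed the filter only through control line 2.

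**Figure D1:**
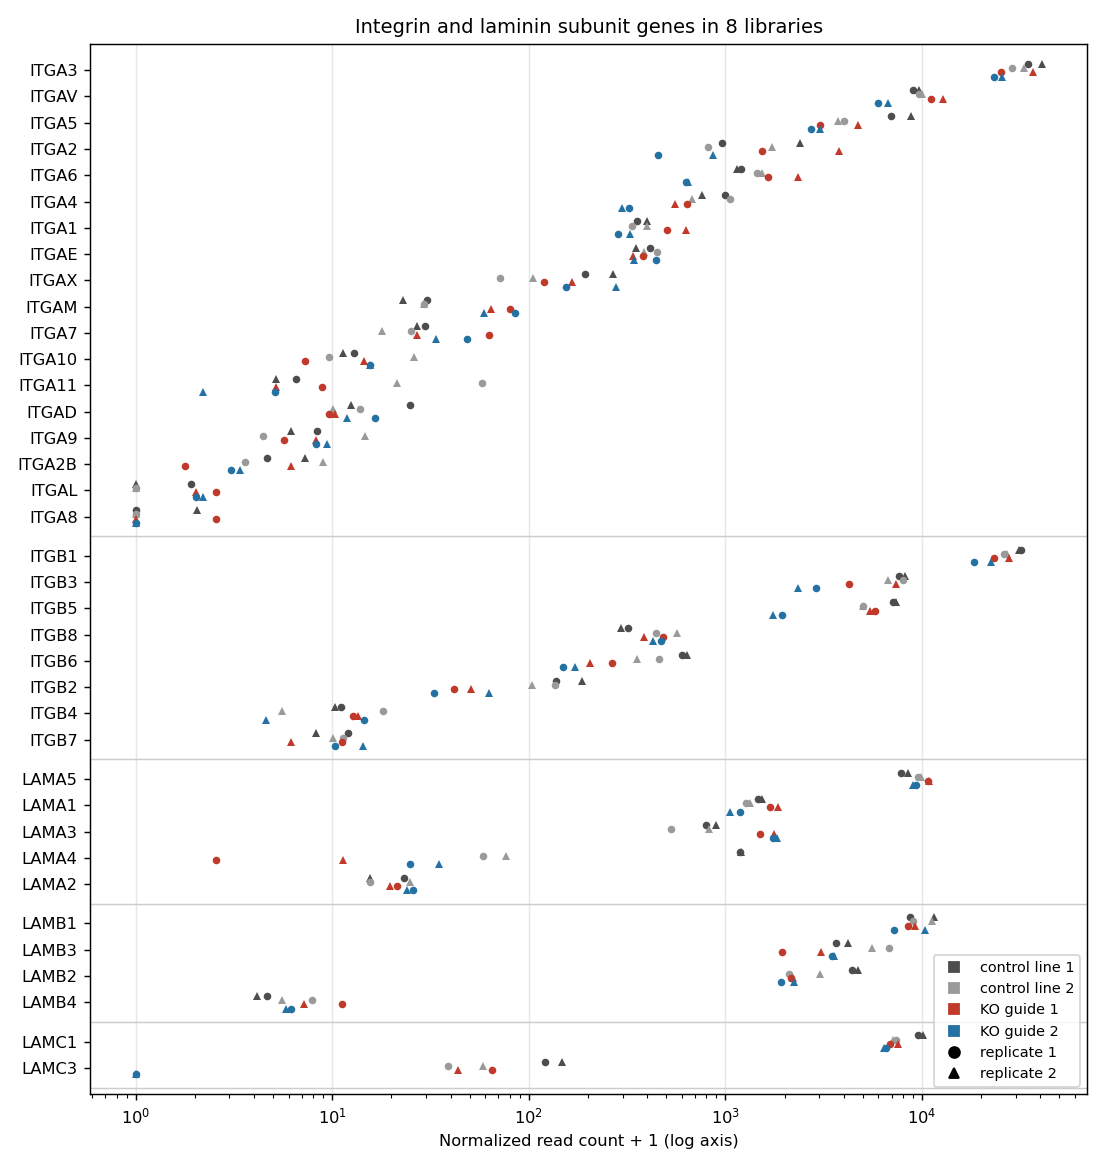
Normalized read count plus 1 on a log axis for the integrin and laminin genes in the 8 libraries, ordered by mean within each family, with the line shown by colour and the replicate by symbol. ITGA3 and ITGB1 are the highest genes, and LAMA4 and LAMC3 are the genes whose lines lie farthest apart.

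Promoter sequences are given for 6 of the 7 genes whose KO-labelled and control libraries did not overlap (the other is ITGB2), since these genes are described in most detail. RefSeq windows on GRCh38.p14 were found for 26 of the 38 genes, and 250 bases before each annotated start were searched on both strands for the TATA box (TATAAA), the CCAAT box, the GC box (GGGCGG), the AP-1 motif (TGANTCA), an E-box (CAGGTG) and the TEAD motif (GGAATG). Capitals mark the matches, and only the stretch outside annotated exons of the gene is printed, 5′ to 3′ on the gene's own strand. The stretches lie at chr18:23872770-23872839 (plus strand) for LAMA3, chr6:112254723-112254785 (minus) for LAMA4, chr1:209651395-209651624 (minus) for LAMB3, chr2:160200314-160200522 (minus) for ITGB6, chr16:31259725-31259966 (plus) for ITGAM and chr2:181457136-181457201 (plus) for ITGA4.
LAMA3: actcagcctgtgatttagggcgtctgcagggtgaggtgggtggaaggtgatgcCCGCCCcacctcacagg
LAMA4: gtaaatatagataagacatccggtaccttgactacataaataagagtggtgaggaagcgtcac
LAMB3: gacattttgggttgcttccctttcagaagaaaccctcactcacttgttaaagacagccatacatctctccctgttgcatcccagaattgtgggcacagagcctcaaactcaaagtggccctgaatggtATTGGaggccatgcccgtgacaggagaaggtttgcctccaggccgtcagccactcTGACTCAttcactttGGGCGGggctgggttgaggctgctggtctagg
ITGB6: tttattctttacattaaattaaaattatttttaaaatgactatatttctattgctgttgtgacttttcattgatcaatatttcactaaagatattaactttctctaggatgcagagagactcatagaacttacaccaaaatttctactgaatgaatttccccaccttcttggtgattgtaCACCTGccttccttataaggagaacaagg
ITGAM: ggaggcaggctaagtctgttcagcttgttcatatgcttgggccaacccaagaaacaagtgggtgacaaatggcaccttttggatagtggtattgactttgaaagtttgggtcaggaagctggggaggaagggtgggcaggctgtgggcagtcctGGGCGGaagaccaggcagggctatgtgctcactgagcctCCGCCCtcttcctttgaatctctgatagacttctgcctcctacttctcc
ITGA4: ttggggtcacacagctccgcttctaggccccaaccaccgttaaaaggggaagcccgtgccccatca

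The LAMA3 window held AP-1 matches at -125 (TGACTCA) and -69 (TGAGTCA) relative to the start at position 23873020, the second of them overlapping an E-box match at -73. Both lie in bases annotated as exon of another LAMA3 transcript, so only its GC box at -197 is in the printed stretch. The LAMB3 window before position 209651374 also held an AP-1 match (TGACTCA at -67), with a CCAAT box at -122 and a GC box at -52, and the other 2 LAMB3 windows in the table held no AP-1 match. An AP-1 match was present in 6.57% of the 35116 promoter windows of the table. ITGAM had GC boxes at -96 and -57, against 42.6% of all windows with at least 1, and ITGB6 had an E-box at -70, against 17.5%. The ITGB6 window was 30.0% G or C with 0 CpG dinucleotides, where the median window had 58.0% and 11. The LAMA4 and ITGA4 windows held none of the 6 motifs, and the TATA, CCAAT and TEAD motifs, found in 10.7%, 32.0% and 11.9% of all windows, were absent from the LAMA3, ITGB6 and ITGAM windows too.

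Levels were compared between genes per kilobase of annotated exon. Among laminin alpha chains LAMA5, the principal alpha chain of adult epithelial basement membranes, was the highest in all libraries, with 68.6% to 84.6% of the summed alpha level. LAMA1, an alpha chain of embryonic and renal basement membranes, held 8.11% to 11.7%. LAMA3, the epithelial alpha chain that assembles with LAMB3, held 4.57% to 7.10% in control libraries and 10.6% to 15.1% in KO-labelled libraries. LAMA4, an alpha chain of mesenchymal and endothelial basement membranes, held 12.2% and 12.8% in control line 1, 0.629% and 0.783% in control line 2 and at most 0.354% in the KO-labelled libraries.

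The laminin beta level was shared between LAMB1 (38.6% to 58.9%), LAMB3 (23.4% to 50.6%) and LAMB2 (10.8% to 25.7%). The gamma level was almost entirely LAMC1, the gamma chain of most trimers, at 98.0% to 99.6%. LAMC3 held at most 1.57%.

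Among integrin beta subunits ITGB1, the partner of most alpha subunits, held 61.3% to 80.9% of the summed beta level per kilobase. ITGB3 and ITGB5, which pair with ITGAV to bind vitronectin and other ligands, held 11.5% to 25.6% and 5.89% to 15.3%. ITGB4, the hemidesmosome subunit that pairs only with ITGA6, held at most 0.0484%, while ITGA6 was present at 632 to 2340 normalized counts. ITGA3, the alpha subunit of a laminin receptor, held 51.7% to 62.7% of the alpha level, followed by ITGAV at 16.4% to 27.2% and ITGA5, of the fibronectin receptor, at up to 16.1%.

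**Figure D2:**
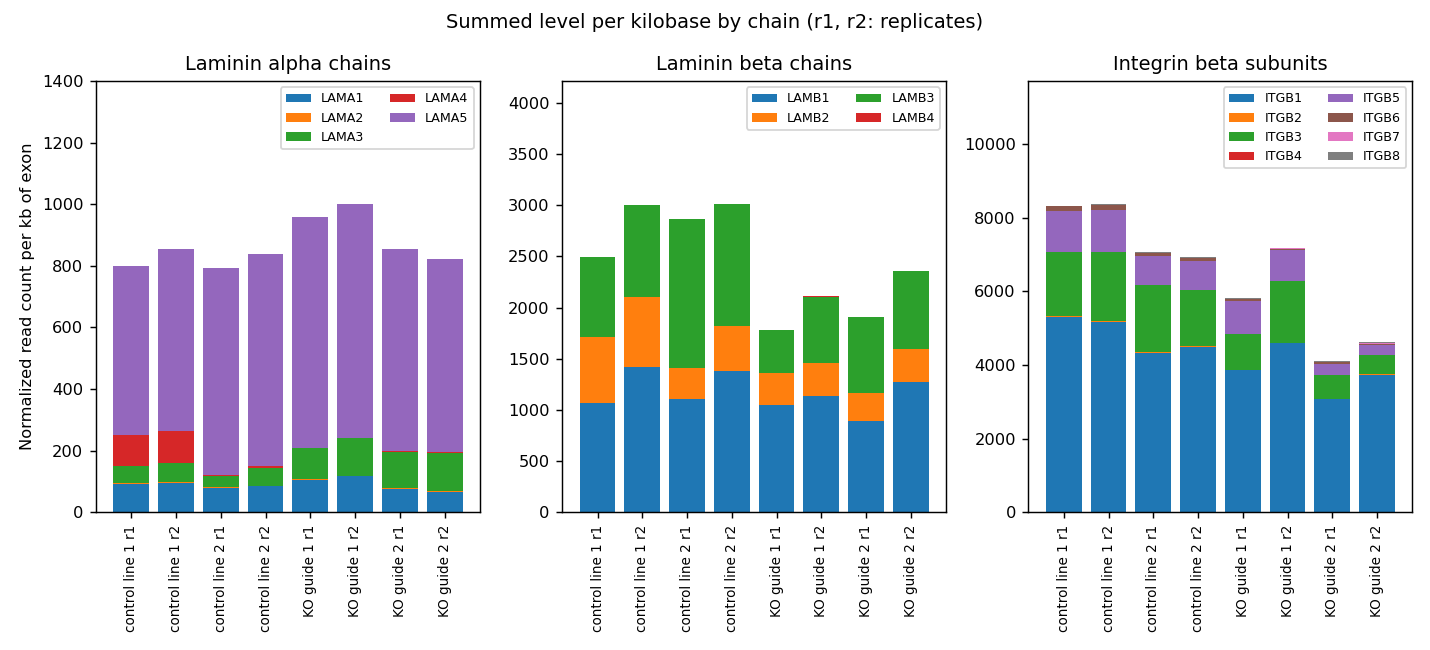
Summed normalized read count per kilobase of exon for laminin alpha and beta chains and integrin beta subunits, stacked by gene, 1 bar per library. LAMA5 and ITGB1 form the largest blocks of their panels, the LAMA4 block is large in control line 1 only, and the integrin beta bars are lowest in KO guide 2.

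The summed levels differed in which lines were low. The summed integrin beta level per kilobase was 8334 and 8371 in control line 1, 7082 and 6942 in control line 2, 5819 and 7194 in KO guide 1, and 4106 and 4614 in KO guide 2. The KO guide 2 libraries were the lowest of the 8, and the KO guide 1 libraries overlapped control line 2. The summed laminin beta level was 2496 to 3010 in the control libraries and 1778 to 2357 in the KO-labelled libraries, which did not overlap. The summed laminin alpha level was 792 to 856 in control and 824 to 1000.3 in KO-labelled libraries, which did overlap. These sums are descriptions and were not tested.

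KO-labelled and control libraries were compared first. Of the 33 genes tested, 0 were called by limma with the line as a random effect, where 0.235% of all genes were. An unadjusted limma p under 0.05 was found for 12 of the 33, and for 1615 of all 14040 genes tested. The edgeR quasi-likelihood test on whole reads called 4 (ITGAM, ITGB2, ITGB6 and LAMA3), against 1.32% of all genes. DESeq2 called 8 (the same 4 with ITGA4, LAMA4, LAMB2 and LAMB3), against 6.05% of all genes. In this comparison neither of these fits had a term for the line. Both treated the 2 replicates of a line as independent samples of an arm, so their p-values can be too small. With the replicate number as a block, limma called LAMA3 only (adjusted p 0.0417), where 0.264% of all genes were called. A fit on line means, with 2 values per arm, called 0 of the 33 genes and 0 of all 14040. The KO-labelled libraries lay wholly above the control libraries for LAMA3 and ITGAM, 2 of 33 against 5.11% of all genes. They lay wholly below for ITGA4, ITGB2, ITGB6, LAMA4 and LAMB3, 5 of 33 against 5.51%. The median log2 difference was -0.20, with 23 genes negative and 10 positive, and 0.00 (0.00073) over all genes.

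**Figure D3:**
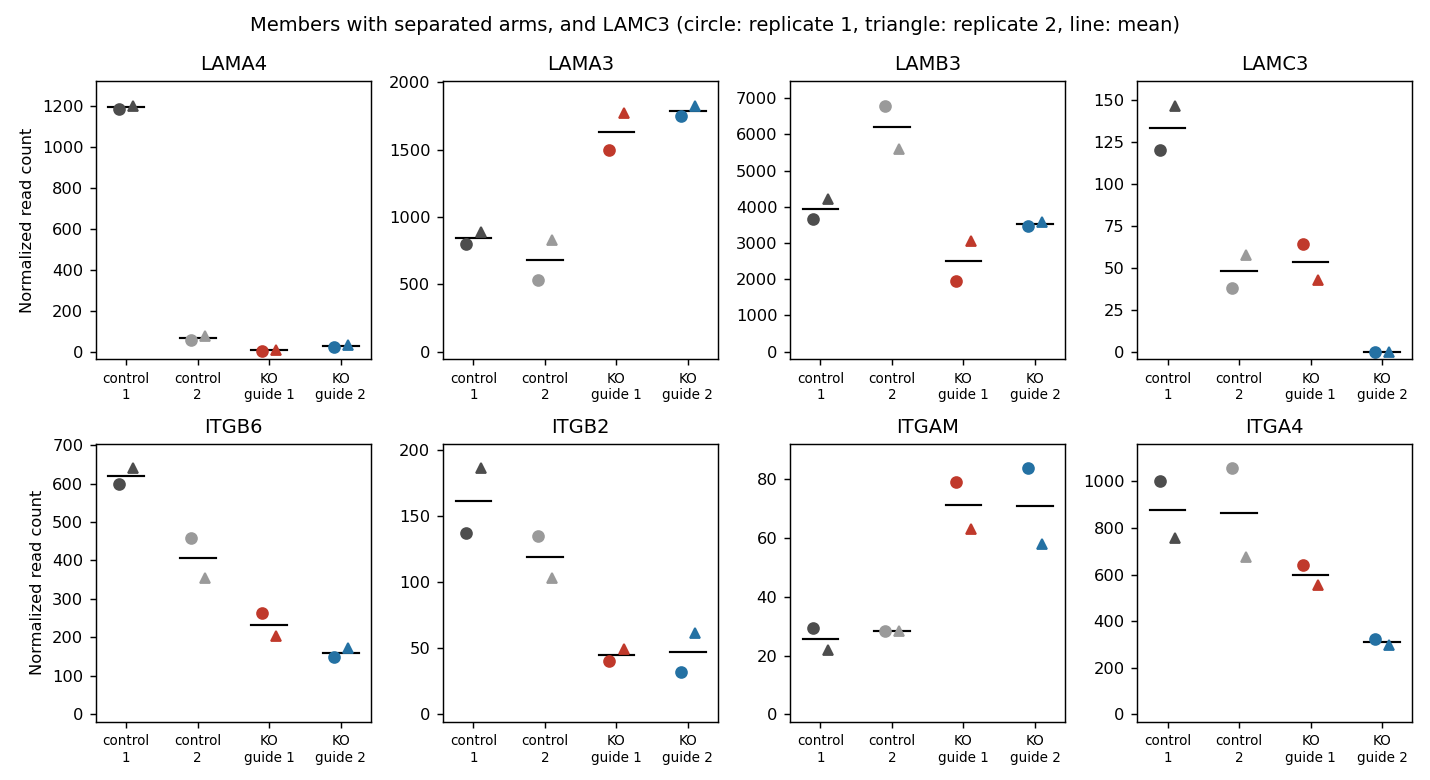
Normalized read counts in each library (circle for replicate 1, triangle for replicate 2, line for the mean of the line) for the 7 genes whose arms did not overlap and for LAMC3. Both control lines are on the same side of both KO-labelled lines in 7 panels, but LAMA4 in control line 2 lies close to the KO-labelled lines, and LAMC3 is at 0 in KO guide 2.

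LAMA3 (chromosome 18, 23689453 to 23955066) was at 798 and 891 in control line 1, then 531 and 826 in control line 2, against 1496 and 1771 in KO guide 1 and 1748 and 1826 in KO guide 2. Both KO-labelled lines were higher than every control library, and the 2 KO-labelled lines were close to each other. The log2 difference was 1.19 (SE 0.21, limma adjusted p 0.0532). Across 18 alternative analyses it lay between 1.03 and 1.28, with adjusted p from 3.29e-08 to 0.493, and 8 of them called it. The 3.29e-08 came from DESeq2, which like edgeR (adjusted p 0.0108) treated the replicates of a line as independent. The fit with a separate mean per line (limma adjusted p 0.0021) called it too, and its p measures the spread between replicates only. Of the 8 fits that left out 1 library, 2 called it, without replicate 1 (limma adjusted p 0.0414) or replicate 2 (0.0476) of control line 2. The rest of these calls came with no filter on low values, equal totals and the replicate block.

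LAMB3 (chromosome 1, 209614870 to 209652425), the beta chain of the LAMA3 trimer, went the other way. Its values were 3668 and 4219 in control line 1, 6793 and 5589 in control line 2, 1951 and 3054 in KO guide 1, and 3466 and 3577 in KO guide 2. The gap between arms was small, with 3577 as the highest KO-labelled value and 3668 as the lowest control value. The log2 difference was -0.75 (SE 0.26, limma adjusted p 0.303).

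LAMA4 (chromosome 6, 112107931 to 112254985) was at 1185 and 1203 in control line 1 but at 57.6 and 75.9 in control line 2. It was at 1.57 and 10.4 in KO guide 1, from 2 and 10 reads, and at 23.8 and 33.8 in KO guide 2. The KO-labelled libraries were lowest, yet control line 2 was far closer to them than to control line 1. The log2 difference was -4.49 (SE 1.16, limma adjusted p 0.162). Of the fibroblast and mural markers measured beside it, COL1A2, DCN and LUM had at most 3 reads in each library, and PDGFRB was at 12.9 and 19.8 in control line 1 and at 1.04 to 6.21 elsewhere; its part in the LAMA4 values was not tested. Fewer cells with a transcript and less transcript per cell cannot be told apart in these bulk libraries.

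ITGB6 (chromosome 2, 160099671 to 160200272), which pairs with ITGAV in a receptor that activates latent TGF-beta, was at 599 and 639.6 in control line 1, 459 and 355 in control line 2, 264 and 203 in KO guide 1, and 148 and 171 in KO guide 2. All KO-labelled libraries were below all control libraries, and KO guide 2 was the lowest line. The log2 difference was -1.38 (SE 0.26, limma adjusted p 0.0655), and 6 of 18 alternatives called it, with adjusted p from 4.39e-06 to 0.567. The 4.39e-06 came from DESeq2, which like edgeR (adjusted p 0.0268) treated the replicates of a line as independent. The fit with a separate mean per line (limma adjusted p 0.00103) called it too. Further calls included the fits without replicate 2 of control line 2 (0.0477) and without replicate 1 of KO guide 1 (0.0458).

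ITGB2 (chromosome 21, 44885953 to 44928815) and ITGAM (chromosome 16, 31259975 to 31332877) encode the 2 subunits of a leukocyte integrin and moved in opposite directions. ITGB2 was at 137 and 186 in control line 1, 135 and 103 in control line 2, 40.7 and 49.8 in KO guide 1, and 32.1 and 61.6 in KO guide 2. ITGAM was at 29.4 and 21.8, and 28.4 and 28.3, in the control lines, against 79.1 and 63.3 in KO guide 1 and 83.8 and 57.9 in KO guide 2. Neither gene had overlapping arms. The log2 differences were -1.60 for ITGB2 (SE 0.32, limma adjusted p 0.0878) and 1.36 for ITGAM (SE 0.28, limma adjusted p 0.0958). Of 18 alternatives, 4 called ITGB2 (adjusted p from 1.59e-06 by DESeq2 to 0.511) and 3 called ITGAM (5.68e-05 by DESeq2 to 0.553). Of the 8 fits that left out 1 library, 1 called ITGB2, without replicate 2 of KO guide 2 (limma adjusted p 0.0404), and 0 called ITGAM. The rest of these calls came from edgeR, DESeq2 and the fit with a separate mean per line. Defining leukocyte markers were low, with CD3E at 0, PTPRC at no more than 1.21 and CD14 at 2.76 to 13.3, and the 4 leukocyte markers together summed to 7.36 to 10.4 in control and 5.19 to 14.5 in KO-labelled libraries. The other partners of ITGB2 did not separate the arms: ITGAX was at 70.6 to 266 in control and 118 to 275 in KO-labelled libraries, ITGAD at 23.9 or less, and ITGAL was not detected.

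ITGA4 (chromosome 2, 181457205 to 181538940), which with ITGB1 binds VCAM1 and fibronectin, was at 999 and 757 in control line 1, 1056 and 675 in control line 2, 639 and 556 in KO guide 1, and 324 and 297 in KO guide 2. The arms did not overlap, but KO guide 1 was nearer to the controls than KO guide 2. The log2 difference was -0.99 (SE 0.29, limma adjusted p 0.217). The remaining 26 genes tested had overlapping arms.

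The line labelled KO guide 1, in which ANXA4 transcript was low, was then compared with both control lines by the spread between replicates. Of the 33 genes, 7 were called, against 7.01% of all genes. ITGAM and LAMA3 rose (2 of 33, against 3.82% of all genes), and LAMA4, ITGB2, ITGB6, LAMB3 and LAMB2 fell (5 of 33, against 3.18%). The changes were 1.37 for ITGAM (SE 0.26, limma adjusted p 0.0193) and 1.12 for LAMA3 (SE 0.18, 0.00921). ITGB6 changed by -1.11 (SE 0.17, limma adjusted p 0.00849), ITGB2 by -1.59 (SE 0.29, 0.0169) and LAMB3 by -1.01 (SE 0.18, 0.0153). LAMA4 changed by -5.71 (SE 0.50, limma adjusted p 0.000752), a size that rests on 2 and 10 reads and ran from -6.79 to -4.30 across the alternatives. LAMB2, a beta chain of kidney glomerular and neuromuscular basement membranes, changed by -0.64 (SE 0.15, limma adjusted p 0.0421). It was at 4407 and 4725 in control line 1, 2111 and 3016 in control line 2, and 2150 and 2203 in KO guide 1, which lay within the range of control line 2.

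A fit with the replicate number as a block called 15 genes in KO guide 1, against 24.4% of all genes. The 8 gained were ITGA1 (0.61, limma adjusted p 0.0021), ITGA2 (0.84, 0.000183), ITGA6 (0.57, 0.00506), ITGAV (0.32, 0.0257), LAMA1 (0.34, 0.0243) and LAMA5 (0.28, 0.0493), all higher, and ITGA4 (-0.52, 0.00865) and ITGA5 (-0.54, 0.00958), both lower. Without the block their adjusted p-values were 0.0535, 0.335, 0.0571, 0.147, 0.104, 0.164, 0.148 and 0.118. Fits without replicate 1 or replicate 2 of KO guide 1 leave that line with 1 library. In them, and in the fit without replicate 2 of control line 1, a smaller share of all genes was called. The count of integrin and laminin genes was lower in each of these fits too. Those still called were LAMA4 with ITGB6 (without replicate 1 of KO guide 1), LAMA4 with LAMB3 (without its replicate 2), and LAMA4, LAMA3 and ITGB6 (without replicate 2 of control line 1).

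The line labelled KO guide 2, in which ANXA4 transcript was not low, showed more called genes. Of the 33, 13 were called, against 11.2% of all genes. LAMA3 and ITGAM were higher (2 of 33, against 4.54%), and 11 were lower (against 6.67%). Both lines were set against the same control libraries, so the values for KO guide 1 and KO guide 2 are given side by side and no overlap is counted. LAMA3 changed by 1.26 (SE 0.18, limma adjusted p 0.00391), beside 1.12 in KO guide 1. ITGAM changed by 1.35 (SE 0.26, limma adjusted p 0.0136), beside 1.37. ITGB6 changed by -1.64 (SE 0.17, limma adjusted p 0.00138), beside -1.11, and ITGB2 by -1.60 (SE 0.29, 0.0107), beside -1.59. LAMA4 changed by -3.27 (SE 0.50, limma adjusted p 0.00533), beside -5.71.

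**Figure D4:**
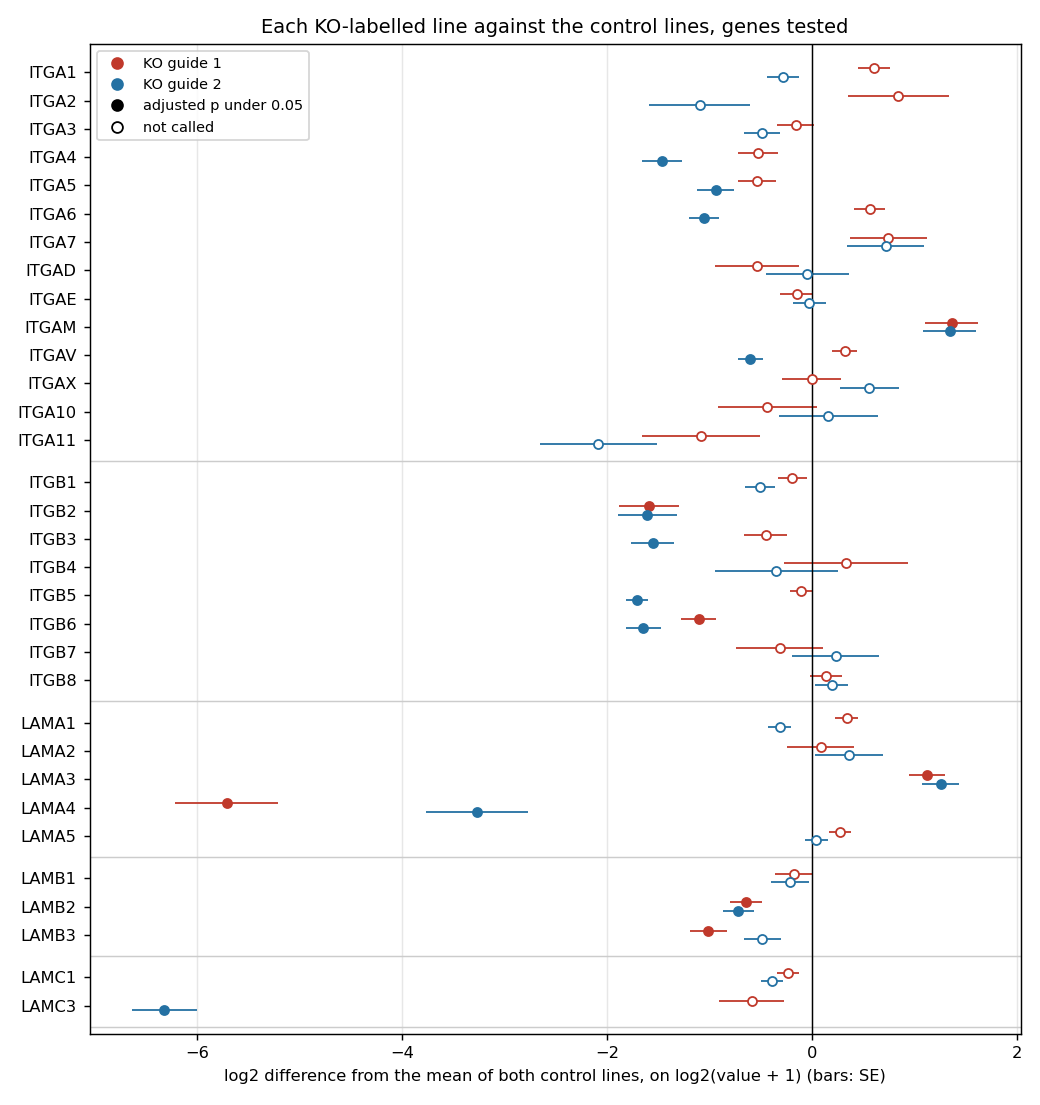
Log2 difference of each KO-labelled line from the mean of both control lines for genes that were tested, with bars of 1 SE and filled points for an adjusted p under 0.05. KO guide 2 has filled points at ITGA4, ITGA5, ITGA6, ITGAV, ITGB3 and ITGB5 where KO guide 1 has open ones, and its LAMC3 point, from 0 reads, depends on the pseudocount.

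ITGB5 and ITGB3, which pair with ITGAV in vitronectin receptors, were low in KO guide 2. ITGB5 (chromosome 3, 124761948 to 124901418) was at 7095 and 7386 in control line 1, 5000 and 5015 in control line 2, 5747 and 5425 in KO guide 1, and 1947 and 1752 in KO guide 2. The KO guide 2 values were below all others, while KO guide 1 lay between the control lines. ITGB5 changed by -1.70 in KO guide 2 (SE 0.11, limma adjusted p 0.000117) and was called in all 16 alternatives for that line. ITGB3 (chromosome 17, 47253827 to 47313743) was at 6734 to 8164 in the control libraries, 4230 and 7340 in KO guide 1, and 2892 and 2332 in KO guide 2, a change of -1.55 for KO guide 2 (SE 0.21, limma adjusted p 0.00336).

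ITGAV, an alpha partner of ITGB1, ITGB3, ITGB5, ITGB6 and ITGB8, was at 8975 to 9975 in the control libraries, 11165 and 12858 in KO guide 1, and 5966 and 6702 in KO guide 2. It was thus above the control range in 1 KO-labelled line and below it in the other, and changed by -0.60 in KO guide 2 (SE 0.12, limma adjusted p 0.0156). ITGB8, another beta partner of ITGAV, was at 293 to 568 in control and 385 to 483 in KO-labelled libraries and was not called. ITGA5, the alpha subunit of the fibronectin receptor, was at 6978 and 8790 in control line 1, 3996 and 3750 in control line 2, 3033 and 4742 in KO guide 1, and 2710 and 3043 in KO guide 2. It changed by -0.94 in KO guide 2 (SE 0.18, limma adjusted p 0.0142), with the control lines themselves apart.

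ITGA6 (chromosome 2, 172427336 to 172506459), the alpha subunit of laminin receptors with ITGB1 or ITGB4, was at 1202 and 1149 in control line 1, 1439 and 1541 in control line 2, 1638 and 2340 in KO guide 1, and 632 and 645 in KO guide 2. KO guide 1 was the highest line and KO guide 2 the lowest, with no overlap of either with the controls. The change was -1.05 in KO guide 2 (SE 0.15, limma adjusted p 0.00398). ITGA4 changed by -1.46 in KO guide 2 (SE 0.20, limma adjusted p 0.00333), beside -0.52 in KO guide 1. ITGA3, the most abundant alpha subunit, was at 28859 to 40851 in control libraries, 25372 and 36740 in KO guide 1, and 23324 and 25417 in KO guide 2, and was not called in either line (limma adjusted p 0.63 and 0.121). ITGB1 was at 26094 to 31951 in control, 23243 and 27671 in KO guide 1, and 18479 and 22448 in KO guide 2, with limma adjusted p of 0.452 and 0.0542.

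LAMC3 (chromosome 9, 131009174 to 131094473), a gamma chain of restricted tissue distribution, had 0 reads in both KO guide 2 libraries. It was at 120.4 and 147 in control line 1, 37.9 and 57.8 in control line 2, and 64.2 and 42.5 in KO guide 1. Against a floor of 3 reads per library, KO guide 2 was at least 39.7-fold lower than control line 1, at least 14.2-fold lower than control line 2 and at least 15.9-fold lower than KO guide 1. The limma adjusted p against both control lines was 3.47e-05, and the gene was called in all 16 alternatives. LAMB2 was at 1907 and 2232 in KO guide 2 and changed by -0.72 (SE 0.15, limma adjusted p 0.0199).

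A fit with the replicate number as a block called 21 genes in KO guide 2, against 27.4% of all genes. The 8 gained were LAMC1 (-0.39, limma adjusted p 0.00885), LAMB3 (-0.48, 0.027), ITGB1 (-0.51, 0.0059), ITGA3 (-0.49, 0.00992), LAMA1 (-0.31, 0.0328) and ITGA2 (-1.09, 2.17e-05), all lower, ITGAX (0.56, 0.0153), higher, and ITGA11, for which the direction is not read because it passed the filter through control line 2 alone. Without replicate 1 of KO guide 2, which leaves that line with 1 library, the count was lower, and so was the share of all genes called. ITGB2, ITGAM, ITGA5, ITGAV and LAMB2 were not called in that fit. The median log2 difference of the 33 genes was -0.39, against 0.01 over all genes, and -0.16 against -0.00 (-0.00087) in KO guide 1.

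Genes of the same chromosomes also lay lower or higher in single lines. The median log2 difference of all tested genes on chromosome 3, which carries ITGB5 and LAMB2, was -0.48 in KO guide 2, -0.22 in KO guide 1 and -0.43 between control line 2 and control line 1. For chromosome 2, with ITGA4, ITGA6, ITGAV and ITGB6, it was -0.26 in KO guide 2 and 0.00 (0.0045) in KO guide 1. For chromosome 9, with LAMC3, it was -0.38 in KO guide 2. For chromosome 16, with ITGAM, it was 0.15 in KO guide 1, 0.25 in KO guide 2 and -0.37 between control line 2 and control line 1, where ITGAM itself differed by 0.16. For chromosome 21, with ITGB2, it was -0.41 in KO guide 1 and 0.02 in KO guide 2. The median of chromosome 20, with LAMA5, was -0.39 in KO guide 1, where LAMA5 itself changed by 0.28, and 0.04 in KO guide 2. The part of these shifts in the values of the integrin and laminin genes was not tested.

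The KO-labelled lines were then compared directly, in the model of all 4 lines, whose estimate of the spread also uses the control libraries. Of the 33 genes, 9 were called, against 6.94% of all genes. LAMA4 was higher in KO guide 2 (1 of 33, against 2.41%), by 2.44 (SE 0.58, limma adjusted p 0.0422). The 8 lower in KO guide 2 (against 4.53%) were LAMC3, with 0 reads in that line, ITGA6, ITGB5, ITGB3, ITGA4, ITGAV, ITGA1 and LAMA1. The differences were -1.62 for ITGA6 (SE 0.17, limma adjusted p 0.0029), -1.60 for ITGB5 (SE 0.12, 0.000461) and -1.10 for ITGB3 (SE 0.24, 0.0339). ITGAV differed by -0.92 (SE 0.14, limma adjusted p 0.00937) and ITGA4 by -0.94 (SE 0.23, 0.0444). ITGA1, the alpha subunit of a collagen receptor, was at 503 and 633 in KO guide 1 and 283 and 327 in KO guide 2, a difference of -0.89 (SE 0.18, limma adjusted p 0.0268). LAMA1 was at 1680 and 1859 in KO guide 1 and 1188 and 1060 in KO guide 2, a difference of -0.65 (SE 0.13, limma adjusted p 0.0239).

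For the genes that separated the arms, the direct difference between the KO-labelled lines was 0.13 for LAMA3 (SE 0.20, limma adjusted p 0.723), -0.02 for ITGAM (SE 0.30, 0.973), -0.02 for ITGB2 (SE 0.34, 0.981), -0.54 for ITGB6 (SE 0.20, 0.14) and 0.53 for LAMB3 (SE 0.21, 0.166), while LAMA4 and ITGA4 were called, as given above. A p that missed the threshold does not show that the lines were alike. A fit with the replicate number as a block called 13 genes, against 24.5% of all genes, and the 4 gained were ITGA2 (-1.94, limma adjusted p 1.49e-06), ITGB6 (-0.54, 0.0384), LAMB3 (0.53, 0.0382) and ITGAX (0.56, 0.0332). The count of 9 was lower without either replicate of control line 1, without either replicate of KO guide 1 or without replicate 2 of KO guide 2. Each of these fits leaves a line with 1 library, and a smaller share of all genes was called in each. LAMC3, ITGA6 and ITGB5 were called in all 8 fits that left out 1 library, ITGAV in 6, ITGB3 in 4, LAMA4 and LAMA1 in 3, and ITGA4 and ITGA1 in 2.

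The control lines, with no ANXA4 guide in either, differed from each other in 3 of the 33 genes, against 2.13% of all genes. All 3 were lower in control line 2 (against 1.08% of all genes), and 0 were higher by limma (against 1.05%). There edgeR called 0 higher, with 136 of all 14040 genes, and DESeq2 called 2, with 320 of all. In either direction 11 of the 33 had an unadjusted limma p under 0.05, and 2178 of all 14040 genes tested. LAMA4 differed by -4.15 (SE 0.58, limma adjusted p 0.0121), ITGA5 by -1.02 (SE 0.21, 0.0499) and LAMB2 by -0.85 (SE 0.18, 0.0495). The difference in LAMA4 between the control lines was thus close in size to the difference of -4.49 between arms. The count was lower without either replicate of control line 1 or of control line 2, fits that leave a compared line with 1 library. A smaller share of all genes was called in each of them. LAMA4, at -4.35 to -3.96 across the 16 alternatives, was not called in these fits. A fit with the replicate number as a block called 11, against 12.5% of all genes. The 8 gained were LAMB3 (0.65, limma adjusted p 0.0254), ITGB8 (0.71, 0.0132), higher in control line 2, ITGA11, which entered the test only through that line, and LAMC1 (-0.45, 0.0189), LAMC3 (-1.49, 0.0187), ITGB5 (-0.53, 0.00673), ITGB6 (-0.61, 0.0353) and ITGAX (-1.39, 0.000416), lower.

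Across all 4 lines, 18 of the 33 genes differed by limma's moderated F-test, against 15.1% of all genes. They were 7 of 14 integrin alpha, 4 of 8 integrin beta, 3 of 5 laminin alpha, 2 of 3 laminin beta and 2 of 3 laminin gamma genes tested, and the alpha count includes ITGA11, which passed the filter only through the line in which it was high. Without replicate 2 of control line 1 the count was lower, and so was the share of all genes called. LAMB1, LAMA5, ITGA3, ITGB1 and ITGAE were among the 15 not called, each at 338 or more in every library. The blocked fit called 24, against 43% of all genes, and the 6 gained were ITGA2 (limma adjusted p 2.57e-06), ITGAX (0.000252), ITGB1 (0.013), ITGB8 (0.0166), ITGA3 (0.0186) and LAMA5 (0.0468). ITGAE, which pairs with ITGB7 on lymphocytes within epithelia, ran from 338 to 447.

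Replicate 2 differed from replicate 1 within the lines, and in the blocked fit 4 of the 33 genes were called for this difference, against 17.6% of all genes. ITGA2, the alpha subunit of a collagen and laminin receptor, was at 964 and 2385 in control line 1, 815 and 1724 in control line 2, 1533 and 3784 in KO guide 1, and 454 and 868 in KO guide 2, replicate 1 first. Replicate 2 was 1.91-fold to 2.47-fold higher in each line, a log2 difference of 1.16 (SE 0.09, limma adjusted p 3.29e-05). ITGAX (0.58, limma adjusted p 0.00894) and LAMB1 (0.34, 0.0198) were also higher in replicate 2, and ITGA4 (-0.34, 0.0348) was lower. What distinguished the replicates was not given in the labels.

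The other genes of the pathway were described from 3 lists, which were chosen with earlier results of these data known. Their counts beside the share of all genes are therefore descriptions only. Among 17 tested integrin ligands other than laminins, 2 were called between KO-labelled and control libraries (against 0.235% of all genes), both lower: THBS1, the matrix glycoprotein thrombospondin 1 (-1.22, SE 0.19, limma adjusted p 0.0245), and TNC, the matrix glycoprotein tenascin C (-1.13, SE 0.13, 0.00916). The list's median was -0.43, against 0.00 (0.0007) over all genes. The edgeR and DESeq2 tests called these 2 with CCN2, TGFBI and VCAM1, against 1.32% and 6.05% of all genes. Neither of these tests had a term for the line. THBS1 was not called without either replicate of control line 1, replicate 1 of control line 2 or replicate 1 of KO guide 2, each of which left TNC called. In KO guide 1, 10 were called, against 7.01% of all genes (1 higher, 9 lower), and fewer without its replicate 2. In KO guide 2, 8 were called, against 11.2% (2 higher, 6 lower). Fewer were called there without its replicate 2, either replicate of control line 1 or replicate 2 of control line 2. A smaller share of all genes was called in each of these fits too. VCAM1, a ligand of ITGA4 with ITGB1, was at 696 to 1482 in control libraries and 2014 to 2884 in KO-labelled libraries, and changed by 1.25 in KO guide 1 (SE 0.19, limma adjusted p 0.00693) and by 1.42 in KO guide 2 (SE 0.19, 0.00302).

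FN1, fibronectin, the ligand of ITGA5 with ITGB1, was at 17998 and 20159 in control line 1, 521 and 434 in control line 2, 794 and 896 in KO guide 1, and 6744 and 5270 in KO guide 2. It fell by 5.32 on the log2 scale from control line 1 to control line 2 (SE 0.17). Against the mean of both control lines, KO guide 1 and KO guide 2 changed by -1.84 (limma adjusted p 0.000477) and 0.98 (0.00435). These p-values measure the spread between replicates only, and both KO-labelled lines lay between the control lines. POSTN, the integrin ligand periostin, was at 2073 and 1969 in control line 1, 63.7 and 34.0 in control line 2, 74.4 and 71.6 in KO guide 1, and 334 and 466 in KO guide 2. EDIL3, a ligand of ITGAV integrins, was at 628 and 489.8 in control line 1 and at 36.3 to 96.6 in the other 3 lines. FN1, POSTN and EDIL3, like LAMA4, were highest in control line 1, and FN1, POSTN and EDIL3 differed between the KO-labelled lines by 2.82 (SE 0.17), 2.42 (SE 0.29) and 1.09 (SE 0.25), higher in KO guide 2.

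**Figure D5:**
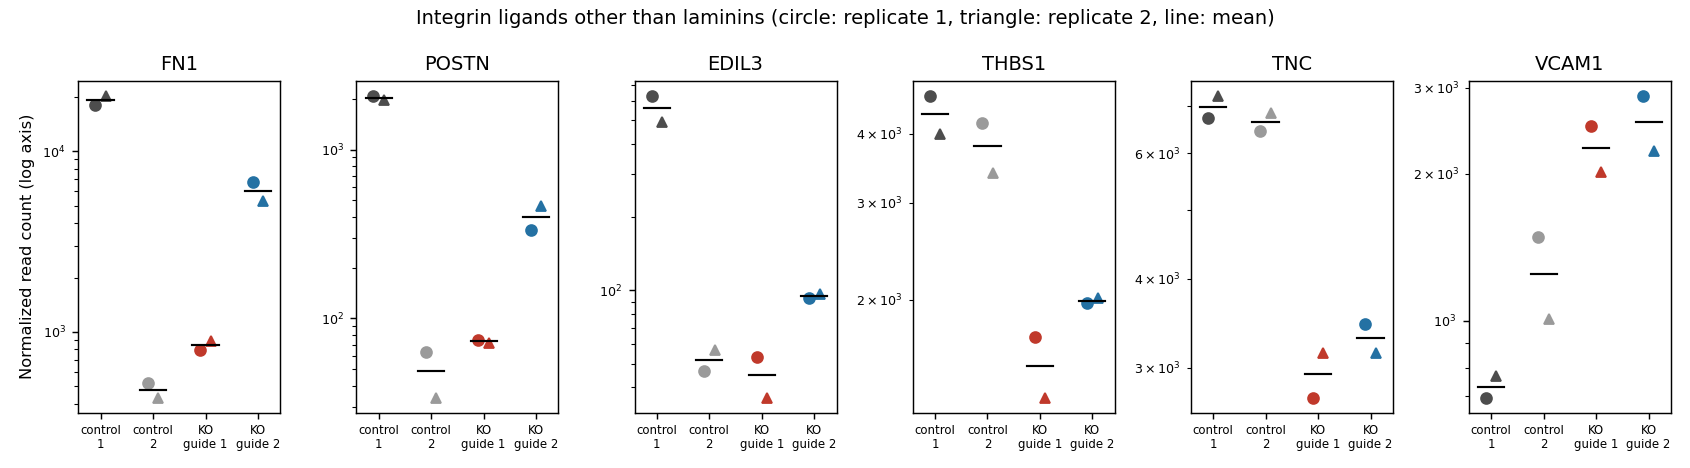
Normalized read counts on a log axis for 6 integrin ligands other than laminins in each library (circle for replicate 1, triangle for replicate 2, line for the mean of the line). THBS1 and TNC are lower and VCAM1 is higher in both KO-labelled lines than in both control lines, while FN1, POSTN and EDIL3 are highest in control line 1 and lower in the other 3 lines.

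Of 15 tested basement membrane proteins and laminin receptors other than the laminins and integrins, 0 were called by limma between KO-labelled and control libraries. An unadjusted limma p under 0.05 was found for 6 of the 15, and for 1615 of all 14040 genes tested. There edgeR called 1 (COL4A1), against 1.32% of all genes. DESeq2 called 5 (COL4A1, COL4A2, FBLN1, NID1 and SDC1), against 6.05%. All were lower, and neither of these fits had a term for the line. In KO guide 1 the 2 called, against 7.01% of all genes, were both lower, SPARC (-1.17, limma adjusted p 0.0154) and the collagen chain COL4A1 (-0.63, 0.0273). With the replicate block the count was 8, against 24.4% of all genes. It was lower without replicate 2 of control line 1 or either replicate of KO guide 1, and higher without either replicate of KO guide 2. The share of all genes called moved the same way in each of these fits. In KO guide 2 the 5 called, against 11.2% of all genes, were all lower, led by the syndecan SDC1 (-1.29, limma adjusted p 0.00271), FBLN1 (-1.26, 0.0042) and COL4A1 (-0.92, 0.00423). With the replicate block 9 were called there, against 27.4% of all genes. The list's median was -0.36 in KO guide 2, against 0.01 over all genes. Between the control lines limma called SDC2, another syndecan, higher in control line 2 by 1.56 (SE 0.16, limma adjusted p 0.00228), 1 of 15 against 2.13% of all genes. The replicate block called 5 there, against 12.5% (SDC2 with DAG1, FBLN1, SDC1 and SDC4, 2 higher and 3 lower). DESeq2 called 3 (SDC2, DAG1 and SDC1), against 4.67% of all genes.

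Of 36 focal adhesion and integrin signalling genes, all tested, 0 were called by limma, edgeR or DESeq2 between KO-labelled and control libraries. These fits called 0.235%, 1.32% and 6.05% of all genes. The list had a median of -0.03 and 0 at an unadjusted limma p under 0.05 (2 by edgeR and 3 by DESeq2). Over all 14040 genes tested there were 1615 by limma, 2421 by edgeR and 2527 by DESeq2. In KO guide 1, PTK2, the focal adhesion kinase, rose by 0.62 (SE 0.14, limma adjusted p 0.0322), and TGFB1I1, a paxillin-like adaptor, changed by -0.92 (SE 0.12, 0.00385). In KO guide 2, LIMS2 (-2.28, limma adjusted p 0.0409) and KANK1 (-0.63, 0.0128) were lower. The size for LIMS2 rests on few reads, with values of 6.21 and 1.21 in KO guide 2 and 11.3 to 32.2 in control libraries. These counts of 2 of 36 in each line were under the 7.01% and 11.2% of all genes. The replicate block raised them to 7 in KO guide 1, where 24.4% of all genes were called, and to 11 in KO guide 2, where 27.4% were. Leaving out 1 library moved both counts in either direction, and the share of all genes called moved too. Between the KO-labelled lines 7 were called, against 6.94% of all genes, 2 higher and 5 lower in KO guide 2. TGFB1I1 was higher by 1.26 (SE 0.14, limma adjusted p 0.00304) and PTK2 was at -0.73 (SE 0.16, 0.0319). This count was 13 with the replicate block (against 24.5%). It was lower without either replicate of control line 1, either replicate of KO guide 1 or replicate 2 of KO guide 2. A smaller share of all genes was called in each of these fits too. PTK2 was at 1908 to 2343 in control libraries, 3237 and 3550 in KO guide 1, and 2304 and 1808 in KO guide 2, so KO guide 1 stood above all other libraries.

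Some values are uncertain because strand use in counting was not given in the sources used here. In the RefSeq annotation ITGA1 overlaps PELO (911 to 1295 normalized counts), ITGB4 overlaps GALK1 (753 to 1210), ITGA7 overlaps TMT1B and BLOC1S1, and ITGAE overlaps HASPIN and P2RX5, all with more counts than, or counts comparable to, the gene itself except P2RX5. ITGB2 overlaps ITGB2-AS1 (4.15 to 14.5), ITGB3 overlaps EFCAB13-DT (23.5 to 81.6), ITGA4 overlaps CERKL (22.9 to 55.5), and LAMA5 overlaps LAMA5-AS1 (23.8 to 78.2), each well under its partner. LAMA4-AS1 was at 0 in all libraries.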

How the data were processed

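Per the labels, polyA-selected RNA of 4 A-498 lines, 2 replicates each, was sequenced. Per the submitters' processing notes, the tools were fastp 0.23.2, HISAT2 2.2.1, featureCounts 2.0.1 and DESeq2 2.11.40.8 on hg38, also named GRCh38. Annotation and strand use were not given in the sources used here. The deposited values were a normalized signal, in which the authors had divided read counts per gene by 1 factor per library. Whole multiples of 1 read made up 100% of nonzero values, within a tolerance of 1e-06 (largest relative deviation 4.96e-10), so whole reads were recovered. Depth, at 15784890 to 22631588 reads per library, limits low genes, and 3 reads per library was used as the floor, which covers counting error only.

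Symbols, coordinates, overlaps and promoter windows came from RefSeq GRCh38.p14 (27745 of 28395 identifiers had a symbol), and exon lengths for levels per kilobase from the union of GENCODE v29 exons. The test covered the 14040 genes that reached a value of 10 in 2 or more libraries. It used limma 3.58.1 (under R 4.3.3) on values transformed as log2(value + 1), with a mean-variance trend and Benjamini-Hochberg adjustment over all genes tested. KO against control used the line as a random effect (duplicateCorrelation 0.33), and single lines were compared in a model that gave each line its own mean. For KO against control, edgeR and DESeq2 had no line term. The scripts were tested on simulated data.

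Replicate numbers came from the titles. The difference between replicate 2 and replicate 1 correlated across genes at 0.285 to 0.501 in the 6 pairs of lines, above the limit of 0.1, so blocked fits, with the replicate number as a term, are given beside results they change. The replicates of each line differed by more than sampling noise (r 0.978 to 0.987, chi-square per degree of freedom 18.8 to 72.3). Alternatives were pseudocounts of 0.1 and 10, no filter, TMM scaling, equal totals, the block, edgeR 4.0.16 and DESeq2 1.42.0 on whole reads, leaving out each library, and, for KO against control, a separate mean per line and line means.

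Named with values were ANXA4, the genes called in each comparison (at most the 10 with the greatest change), those whose arms did not overlap, those not detected, and at most 3 rises and 3 falls per list. The values of 1 gene are not reported here. The members and the lists were chosen with earlier results of these data known.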

Additional observations from a re-analysis of the deposited data

Results flagged for a closer look

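In 4 of 66 groups of 4 libraries, 1 library lay far from the other 3. Chance alone gives this in about 1 of 20 groups of 4 independent values. Each group here held 2 lines with 2 replicates, so that rate need not hold. ITGA3 was at 36740 in replicate 2 of KO guide 1, against 23324, 25372 and 25417 in the other KO-labelled libraries. ITGA5 was at 4742 in the same library, against 2710, 3033 and 3043. ITGA10, the alpha subunit of a collagen receptor, was at 6.26 in replicate 1 of KO guide 1, against 13.5, 14.5 and 14.5. These ITGA10 values rest on 8 reads, against 13, 14 and 12. ITGAM was at 21.8 in replicate 2 of control line 1, against 28.3, 28.4 and 29.4 in the other control libraries.

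The effects of the 2 KO-labelled lines, tested directly against each other with limma, differed for 9 genes. KO guide 2 minus KO guide 1 was -5.74 for LAMC3, a value that depends on the pseudocount, -1.62 for ITGA6, -1.60 for ITGB5, -1.10 for ITGB3, -0.94 for ITGA4, -0.92 for ITGAV, -0.89 for ITGA1, -0.65 for LAMA1 and 2.44 for LAMA4 (adjusted p from 0.000153 to 0.0444).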

How the results depend on the processing

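Between KO-labelled and control libraries the count of called integrin and laminin genes was 0, and it became 2 with no filter on low values (0.34% of all genes called), 1 with equal totals (0.228%), 1 with the replicate block (0.264%), 4 with edgeR (1.32%), 8 with DESeq2 (6.05%) and 12 with a separate mean per line (10.5%), and lay between 0 and 2 when 1 library was left out. For KO guide 1 against controls it was 7, 15 with the replicate block (24.4%) and 2 to 8 with 1 library left out, and for KO guide 2 it was 13, 21 with the block (27.4%) and 8 to 14. Between the control lines it was 3, and became 1 with a pseudocount of 0.1 (1.96%), 1 with no filter (0.875%), 11 with the replicate block (12.5%), 1 with edgeR (2.04%) and 8 with DESeq2 (4.67%), and 0 to 4 with 1 library left out. Between the KO-labelled lines it was 9, 13 with the block (24.5%) and 4 to 9 with 1 library left out, and for any difference among lines 18, 24 with the block (43%) and 8 to 17. The replicate block removed none of the calls made without it in these 6 comparisons. Recomputed one by one were 36 differences (the called genes with the greatest change in each comparison and those whose arms did not overlap). All 36 kept their direction in the alternatives run, and of their values there 493 also kept their side of the threshold, 70 lost the call and 27 gained it. The cause of these changes was not tested, except that leaving out a library lowers the number of samples and that the fit with a separate mean per line takes no account of variation between lines. For KO against control, edgeR and DESeq2 treated the replicates of a line as independent. The fit on line means, with 2 values per arm, called 0 of the 33 genes and 0% of all genes. In most fits that left out 1 library the share of all genes called was lower too. Depth limits LAMC3 and LAMA4: the LAMC3 difference for KO guide 2 ran from -9.63 to -3.17 with the pseudocount and other settings because both libraries had 0 reads, so its bound is the value to use.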
